A study of Mus musculus with 21 samples.

Results

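Vil1, Cdh17, Tspan8, Lgals2 and Lgals4 are 5 genes of gut-type absorptive epithelium that were measured here in mouse mammary epithelial cells treated with the cytokine TGF-b1 (transforming growth factor beta 1). They were chosen by name from the results of these arrays, 5 of 18193 genes in the array table of NMuMG cells and 5 of 12393 genes in the table of NM18 cells. After 40 h of TGF-b1 in NM18 cells the RNA of all 5 was lower, 1.89-fold for Vil1, 2.02-fold for Cdh17, 8.39-fold for Tspan8, 9.58-fold for Lgals2 and 11.5-fold for Lgals4. With FoxQ1 siRNA in the presence of TGF-b1, Vil1 and Cdh17 stood above the cells without TGF-b1, while Tspan8, Lgals2 and Lgals4 stayed below them. After 2 h of TGF-b1 in NMuMG cells, Tspan8 and Vil1 were lower in newly made RNA, and Lgals2 and Lgals4 differed by less than the SE of the difference.

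TGF-b1 is a secreted factor that turns epithelial cells towards a mesenchymal state, and FoxQ1 is a forkhead transcription factor. The brush border is the dense carpet of microvilli on absorptive gut and kidney cells, each microvillus held up by a bundle of actin filaments. Villin (Vil1) bundles and severs those filaments. Cdh17 (liver-intestine cadherin) is a cell adhesion protein of gut epithelium. Tspan8 is a tetraspanin of the cell membrane, known for its high level in gut tumours. Lgals2 and Lgals4 are galectins, sugar-binding proteins of the digestive tract, and galectin-4 takes part in carrying proteins to the apical membrane of absorptive cells.

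The study measured RNA on Affymetrix arrays in 7 groups of 3 arrays, which its design text calls biological replicates. In NM18 cells the groups were FoxQ1 siRNA with TGF-b1, non-specific siRNA (ns-siRNA) with TGF-b1, and ns-siRNA alone. Each siRNA was used at 25 nM for 48 h, and TGF-b1 at 5 ng/ml was present for the last 40 h. No group had FoxQ1 siRNA without TGF-b1. NMuMG is an epithelial line of the mouse mammary gland, and all 4 of its groups carried 4-thiouridine (4sU) at 200 µM during the 2 h in which TGF-b1 at 5 ng/ml was present or absent. 4sU is built into RNA made while it is present, and a mercury column then enriches that RNA, called newly made here. The 4 NMuMG groups were TGF-b1 newly made, control newly made, TGF-b1 total and control total RNA. The labels give NM18 by name only. A free-text note on ns-siRNA array 1 describes TGF-b1 treatment, and the array was grouped by its title as untreated.

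Which values led to the choice of the 5 genes is not recorded, so every measure in these tables counts as used. Lgals4, Lgals2 and Tspan8 ranked 5, 6 and 9 among the falls after 40 h of TGF-b1. Vil1, Cdh17 and Lgals2 ranked 7, 9 and 10 among the rises with FoxQ1 siRNA. The values of the 5 genes are therefore given as descriptions, with no p-value. All levels and differences are on a log2 scale, where a difference of 1 is a 2-fold change. Differences are means of 3 arrays against 3, with the standard error (SE) of a limma fit over all genes of the table. A gene is called where its adjusted p in that fit is under 0.05. The probe set with the highest mean stands for a gene, which mattered for Tspan8 (5 probe sets in NMuMG, 4 in NM18) and Lgals2 (2 in each). A level measured with 1 probe set cannot be set against that of another, so levels of the 5 genes are compared between groups. For cell type markers, gut genes and Lgals4 the table median is used as a rough mark, with that limit.

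The siRNA target was lower in the FoxQ1 siRNA arrays. Foxq1 had 7.57, 8.09 and 7.97 with FoxQ1 siRNA and TGF-b1, 9.08, 9.04 and 9.33 with ns-siRNA and TGF-b1, and 7.91, 8.49 and 8.38 with ns-siRNA alone. The difference between the siRNAs under TGF-b1 was -1.27 ± 0.16 (adjusted p = 0.000291, limma), and TGF-b1 against ns-siRNA alone gave 0.89 ± 0.16 (adjusted p = 0.00164). Against ns-siRNA alone, Foxq1 in the FoxQ1 siRNA arrays differed by -0.39 (adjusted p = 0.0909).

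The simple epithelial keratin Krt8 lay above the table medians on all arrays, and the milk gene Csn2 lay under them. Krt8 lay between 14.18 and 14.42 on the NM18 arrays and between 12.84 and 14.33 on the NMuMG arrays. Csn2 (beta-casein) lay between 5.36 and 5.69 on the NM18 arrays and between 4.66 and 5.29 on the NMuMG arrays, where the table medians were 7.79 and 6.67. In NM18 cells, 1, 0 and 0 of 8 leukocyte markers were above the table median with FoxQ1 siRNA and TGF-b1, ns-siRNA and TGF-b1, and ns-siRNA. Of the leukocyte markers 2 were called higher in each of FoxQ1 siRNA against ns-siRNA under TGF-b1 and TGF-b1 against ns-siRNA alone, beside 11.3% and 13.2% of all genes. For TGF-b1 against ns-siRNA alone, both calls were lost with number 2 left out, and also without ns-siRNA array 3 or without array 1 of ns-siRNA with TGF-b1. The summed leukocyte level was 9.58 to 9.69, 9.53 to 9.60 and 9.42 to 9.50 in those groups. None of 8 fibroblast markers was above the median, with summed levels of 9.02 to 9.10, 9.07 to 9.15 and 8.86 to 8.96. Of 11 luminal markers, 4 were above the table median in each NM18 group and 5 in each NMuMG group. The summed level of the 11 in the NM18 groups was 15.64 to 15.70, 15.40 to 15.61 and 15.79 to 15.90. The summed level of 8 basal epithelial markers was 9.91 to 10.08, 9.51 to 9.83 and 9.28 to 9.48, with no overlap between the groups. Of these, 1 was called higher with FoxQ1 siRNA against ns-siRNA under TGF-b1 and 2 with TGF-b1 against ns-siRNA alone. Of all genes, 11.3% and 13.2% were called higher in these contrasts. In NMuMG cells the summed fibroblast level was 9.28 to 10.37 in TGF-b1 newly made and 8.58 to 9.61 in control newly made RNA. The part of these shifts in the results was not tested. In bulk RNA, fewer cells with a transcript and less of it per cell cannot be told apart. Of 21 measured genes of absorptive gut epithelium, 2 were above the table median in each NM18 group, and of 15 secretory gut genes 2 were. The enterocyte genes Fabp1 (fatty acid binding) and Lct (lactase) lay under it, between 5.67 and 5.80 and between 5.61 and 5.75 on the NM18 arrays. They do not stand for the whole list. The summed level of the 21 absorptive genes was 13.29 to 14.10 with FoxQ1 siRNA and TGF-b1. It was 12.48 to 12.99 with ns-siRNA and TGF-b1, and 12.26 to 12.67 with ns-siRNA.

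Promoter sequences were available for 4 of the 5 genes. They are shown because the genes were all lower after 40 h of TGF-b1 but differed in their levels with FoxQ1 siRNA. Each line gives the 250 bases before the RefSeq transcription start (GRCm38.p6), 5′ to 3′ on the gene's strand, with matches to the searched motifs in capitals. Vil1 lies on chromosome 1 (74409384 to 74435560) with its promoter at chr1:74409134-74409383, plus strand. Tspan8 lies on chromosome 10 (115816817 to 115849893), promoter chr10:115817034-115817283, plus strand. Lgals2 lies on chromosome 15 (78850860 to 78855529), promoter chr15:78855530-78855779, minus strand. Lgals4 lies on chromosome 7 (28833122 to 28841710), promoter chr7:28833544-28833793, plus strand. For Tspan8 and Lgals4 the start used lies inside the annotated gene span. Cdh17 lies on chromosome 4 (11758157 to 11817905).
Vil1: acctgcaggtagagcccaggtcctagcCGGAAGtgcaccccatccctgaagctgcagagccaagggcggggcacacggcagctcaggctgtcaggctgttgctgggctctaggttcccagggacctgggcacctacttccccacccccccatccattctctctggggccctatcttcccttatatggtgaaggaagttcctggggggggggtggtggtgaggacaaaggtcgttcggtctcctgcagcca
Tspan8: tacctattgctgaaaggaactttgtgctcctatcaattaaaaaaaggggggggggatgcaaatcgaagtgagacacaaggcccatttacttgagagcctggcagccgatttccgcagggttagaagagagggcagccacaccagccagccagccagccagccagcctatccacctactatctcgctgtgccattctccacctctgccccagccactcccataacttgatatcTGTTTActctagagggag
Lgals2: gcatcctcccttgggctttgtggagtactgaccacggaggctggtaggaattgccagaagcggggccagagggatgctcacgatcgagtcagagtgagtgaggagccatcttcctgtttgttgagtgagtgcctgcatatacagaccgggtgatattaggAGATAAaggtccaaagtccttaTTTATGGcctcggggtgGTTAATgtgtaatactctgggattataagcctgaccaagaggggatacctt
Lgals4: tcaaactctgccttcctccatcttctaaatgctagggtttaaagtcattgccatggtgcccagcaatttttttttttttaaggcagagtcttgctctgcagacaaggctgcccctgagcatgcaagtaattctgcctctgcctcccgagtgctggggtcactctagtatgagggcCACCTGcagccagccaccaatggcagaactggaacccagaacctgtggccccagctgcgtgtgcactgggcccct

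The capitals mark 6 matches with no overlap between them. Vil1 held the letters CGGAAG (ETS factors, bases 223 to 218 before the start). Tspan8 held TGTTTA (forkhead factors, 18 to 13). Lgals2 held 3 matches. That for GATA factors was spelled AGATAA and lay at 90 to 85. That for CDX factors was spelled TTTATGG and lay at 68 to 62. That for HNF1 was spelled GTTAAT and lay at 51 to 46. Lgals4 held CACCTG (the E-box of ZEB and Snail, 75 to 70). Among 32851 promoters of this length, 13.6% held the ETS motif, 12% the forkhead, 9.99% the GATA, 9.81% the CDX (TTTATNG), 6.43% the HNF1 and 17.2% the E-box. Both strands were also searched for the HNF4 motif CAAAGTCCA, the KLF motif CCACACCC, the SMAD motif GTCTAGAC, the AP-1 motif TGANTCA and the core promoter box spelled TATAAA, whose letters were not in these 4 windows. Those motifs were in 0.384%, 3.2%, 0.167%, 6.75% and 12.4% of all promoters. A match is a description of letters and not a shown binding site.

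In NM18 cells, villin RNA was highest with FoxQ1 siRNA and TGF-b1 and lowest with ns-siRNA and TGF-b1. Vil1 had 10.57, 10.82 and 10.41 with FoxQ1 siRNA and TGF-b1, 8.56, 9.11 and 8.68 with ns-siRNA and TGF-b1, and 9.45, 9.98 and 9.69 with ns-siRNA. The group means were 10.60 ± 0.21, 8.78 ± 0.29 and 9.70 ± 0.26 (SD, n = 3 each). No 2 of the 3 groups overlapped. TGF-b1 against ns-siRNA alone gave -0.92 ± 0.16 (SE). FoxQ1 siRNA against ns-siRNA under TGF-b1 gave 1.82 ± 0.16, a 3.53-fold higher level. Against ns-siRNA alone the FoxQ1 siRNA arrays stood 0.90 ± 0.16 higher, or 1.86-fold.

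Cdh17, the cadherin, followed the order of villin. It had 10.29, 10.23 and 10.22 with FoxQ1 siRNA and TGF-b1, 8.60, 8.23 and 8.65 with ns-siRNA and TGF-b1, and 9.56, 9.20 and 9.77 with ns-siRNA. The 3 groups did not overlap, and the FoxQ1 siRNA arrays lay within 0.07 of each other. The mean of the FoxQ1 siRNA group was 10.25 ± 0.04, against 8.49 ± 0.23 with ns-siRNA and TGF-b1 and 9.51 ± 0.29 with ns-siRNA. TGF-b1 against ns-siRNA alone gave -1.02 ± 0.14. FoxQ1 siRNA against ns-siRNA under TGF-b1 gave 1.75 ± 0.14 (3.37-fold), and against ns-siRNA alone 0.74 ± 0.14 (1.67-fold).

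Tspan8, the tetraspanin, was highest without TGF-b1. It had 9.88, 10.75 and 9.90 with FoxQ1 siRNA and TGF-b1, 9.45, 9.82 and 9.64 with ns-siRNA and TGF-b1, and 12.74, 12.39 and 12.98 with ns-siRNA. Both TGF-b1 groups lay far under the ns-siRNA arrays. They did not overlap each other, though the lowest FoxQ1 siRNA array and the highest ns-siRNA array with TGF-b1 were 9.88 and 9.82. TGF-b1 against ns-siRNA alone gave -3.07 ± 0.22. FoxQ1 siRNA against ns-siRNA under TGF-b1 gave 0.54 ± 0.22 and was not called. Against ns-siRNA alone the FoxQ1 siRNA arrays differed by -2.53 ± 0.22, a 5.78-fold lower level. The other 3 Tspan8 probe sets gave -2.69, -2.77 and -1.15 for TGF-b1, and 0.17, 0.28 and -0.03 for FoxQ1 siRNA under TGF-b1, with overlapping groups for FoxQ1 siRNA. The mean of all 4 probe sets for TGF-b1 was -2.42.

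Lgals2 was lower with TGF-b1 and, under TGF-b1, higher with FoxQ1 siRNA. It had 11.46, 12.52 and 11.34 with FoxQ1 siRNA and TGF-b1, 9.71, 10.70 and 9.73 with ns-siRNA and TGF-b1, and 13.48, 12.96 and 13.47 with ns-siRNA. The 3 groups did not overlap, and the FoxQ1 siRNA arrays lay between the other 2 groups. TGF-b1 against ns-siRNA alone gave -3.26 ± 0.32. FoxQ1 siRNA against ns-siRNA under TGF-b1 gave 1.73 ± 0.32 (3.32-fold), and against ns-siRNA alone -1.53 ± 0.32. The second Lgals2 probe set gave -3.33, 1.62 and -1.71 for these contrasts. Array 2 was the highest of both TGF-b1 groups, so pairs of arrays with the same number differed by 1.75, 1.82 and 1.62 between the siRNAs under TGF-b1, a narrower spread than that of either group.

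Lgals4, the apical galectin, had SDs of 1.03 with FoxQ1 siRNA and TGF-b1, 0.37 with ns-siRNA and TGF-b1 and 0.86 with ns-siRNA. It had 6.98, 8.64 and 6.76 with FoxQ1 siRNA and TGF-b1, 6.48, 6.94 and 6.20 with ns-siRNA and TGF-b1, and 10.40, 9.09 and 10.70 with ns-siRNA. Array 2 stood apart in all 3 groups, high with TGF-b1 and low without it. TGF-b1 against ns-siRNA alone gave -3.52 ± 0.49, with no overlap. FoxQ1 siRNA against ns-siRNA under TGF-b1 gave 0.92 ± 0.49, with overlapping groups, and was not called. Same-numbered arrays differed by 0.50, 1.70 and 0.56 in that contrast. Without FoxQ1 siRNA array 2 the difference was 0.33, and with number 2 left out of every group it was 0.53 and was called. The sizes of the other contrasts also depended on number 2. Without it TGF-b1 gave -4.21, an 18.5-fold lower level in place of 11.5-fold (16.1-fold without ns-siRNA array 2 alone), and FoxQ1 siRNA against ns-siRNA alone gave -3.68 in place of -2.60 ± 0.49. Without FoxQ1 siRNA array 2 alone, that contrast was 9.13-fold lower in place of 6.06-fold. The Lgals4 values with ns-siRNA and TGF-b1 all lay under the table median of 7.79, as did 6.98 and 6.76 with FoxQ1 siRNA and TGF-b1. Whether a lower limit of the array signal shaped the sizes of these differences was not tested. Some mouse strains carry Lgals6, a near-identical neighbour of Lgals4, and whether its RNA added to this probe set was not tested.

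**Figure D1:**
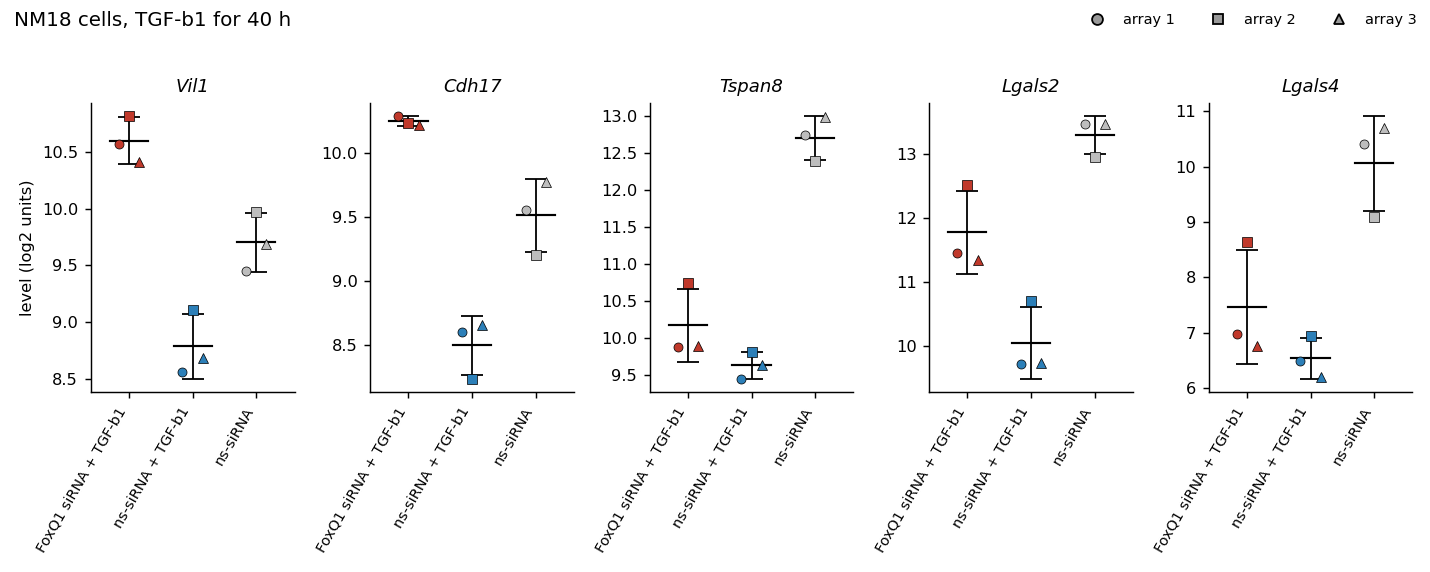
Levels of the 5 genes on each NM18 array (log2 units on the vertical axis, a separate scale per gene), with points shaped by array number, long bars for group means and capped bars for ± 1 SD (n = 3). Vil1 and Cdh17 are highest with FoxQ1 siRNA and TGF-b1, Tspan8, Lgals2 and Lgals4 are highest with ns-siRNA, and array 2 of Lgals4 stands apart in each group.

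In the limma fit, 5 of the 5 genes were called lower after 40 h of TGF-b1, beside 17.5% of all genes. With FoxQ1 siRNA against ns-siRNA under TGF-b1, 3 of the 5 (Vil1, Cdh17 and Lgals2) were called higher, beside 11.3% of all genes. Against ns-siRNA alone, 2 of the 5 (Vil1 and Cdh17) were called higher, beside 19.3%, and 3 of the 5 were called lower, beside 18.6%. All these contrasts count as used in choosing the genes, so nothing is read from these shares. The contrasts share arrays, and each gene's values stand side by side for that reason. With number 2 left out of every group, an alternative added after the values were seen, the 3 contrasts called 5, 4 and 5 genes, the added gene being Lgals4.

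Correlations over the 9 NM18 arrays describe how alike the profiles were, over arrays that share groups. Tspan8 and Lgals4 had a Pearson r of 0.97, Lgals2 and Lgals4 of 0.94 and Tspan8 and Lgals2 of 0.92. Vil1 and Cdh17 had 0.89. Vil1 had 0.18 with Tspan8 and 0.25 with Lgals4, and Cdh17 had 0.25 with Tspan8 and 0.33 with Lgals4. Lgals2 lay between, with 0.54 to Vil1 and 0.55 to Cdh17. Among 6195 other genes above the median level, the profile of Tspan8 was most like those of Krt19 (0.99), Ugdh (0.99) and Gsr (0.99), and that of Lgals4 like those of Tnfsf9 (0.99), Vnn1 (0.99) and Ndufb10 (0.99). Lgals2 was most like Idh1 (0.99), Arhgef16 (0.99) and Slc26a2 (0.99). Vil1 was most like Rasa2 (0.99), Ephx1 (0.99) and Atp6v1h (0.98), and Cdh17 like Tmx2 (0.98), Rnf8 (0.98) and Hs6st1 (0.97). Krt19, a simple epithelial keratin, is a luminal marker that itself changed by -3.11 ± 0.24 after TGF-b1 (adjusted p = 5.44e-06, limma).

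**Figure D2:**
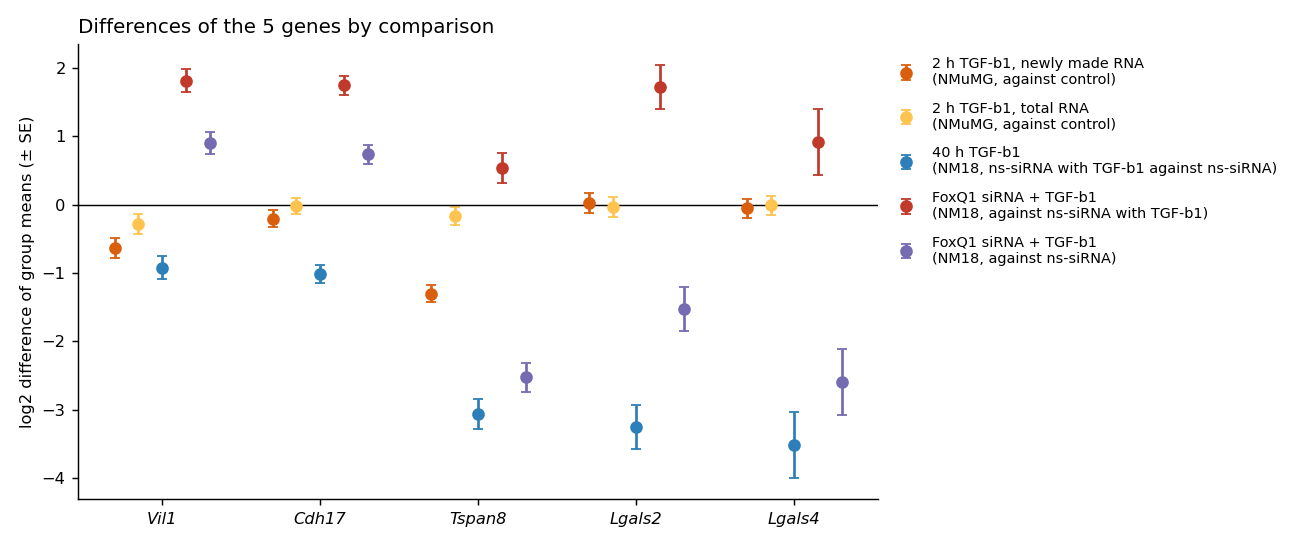
Log2 differences of group means with their SE (vertical axis) for the 5 genes in 5 comparisons, by colour. For Vil1 and Cdh17 the FoxQ1 siRNA points lie above 0 against both ns-siRNA groups, while for Tspan8, Lgals2 and Lgals4 they lie above 0 against ns-siRNA with TGF-b1 and below 0 against ns-siRNA alone.

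The other genes of the brush border were called lower with TGF-b1 more often than higher. Of 17 measured genes for brush-border structure, 8 were called lower after 40 h of TGF-b1 and 1 higher, with a median difference of -0.21 beside 0.00 for all genes. Of all genes, 17.5% were called lower and 13.2% higher. The fimbrin gene Pls1 (a bundler of microvillus actin) changed by -1.35 ± 0.11 (adjusted p = 8.28e-06), Eps8 (an actin-capping and bundling protein of microvilli) by -1.48 ± 0.13 (1.19e-05) and the ezrin partner Slc9a3r1 by -0.81 ± 0.08 (2.87e-05). The myosin gene Myo1e was higher by 0.52 ± 0.07 (0.000191). With FoxQ1 siRNA under TGF-b1, 2 of the 17 were called higher, beside 11.3% of all genes, Baiap2l1 by 0.54 ± 0.12 (0.00759) and Slc9a3r1 by 0.26 ± 0.08 (0.0458). The remaining called gene was Ezr (ezrin, which ties actin to the membrane), at -0.53 ± 0.08 (0.00057), beside 8.28% of all genes called lower. Against ns-siRNA alone, 8 of the 17 were lower with FoxQ1 siRNA and TGF-b1 and 1 higher, beside 18.6% and 19.3% of all genes. The lower ones were led by Ezr (-1.06 ± 0.08) and Eps8 (-1.61 ± 0.13). All these p-values are limma's, adjusted over all genes of the table.

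Transcription factors of gut and endoderm were also called lower more often than higher with TGF-b1. Of 20 measured, 10 were called lower and 2 higher after 40 h of TGF-b1, beside 17.5% and 13.2% of all genes. The median difference of the 20 was -0.29. The lower ones with the smallest p were Foxa2 (-1.34 ± 0.13, adjusted p = 2.76e-05), Pdx1 (-0.97 ± 0.12, 0.000125), Ehf (-1.998 ± 0.28, 0.000244) and Hnf4a (-1.44 ± 0.20, 0.00026), which drives gut and liver genes. Cdx2, the intestinal homeobox factor, changed by -1.03 ± 0.16 (0.000599) and is named outside the rule, after its value was seen. With FoxQ1 siRNA under TGF-b1, 4 of 20 were called higher and 1 lower, beside 11.3% and 8.28% of all genes. Hnf4a was higher by 1.02 ± 0.20 (0.00433), Foxa3 by 0.82 ± 0.11 (0.000421) and Elf3 (an epithelial ETS factor) by 0.78 ± 0.09 (0.000159). Klf4 changed by -1.11 ± 0.12 (6.97e-05), while Cdx2 differed by -0.09 (0.79). With number 2 left out, 10 were lower and 1 higher with TGF-b1, and 3 higher and 1 lower with FoxQ1 siRNA under TGF-b1. With the array number as a replicate block, 6 of 20 were called higher and 2 lower. Against ns-siRNA alone, 2 were higher and 8 lower with FoxQ1 siRNA and TGF-b1, beside 19.3% and 18.6% of all genes. With the replicate block, 5 were higher and 10 lower in that contrast.

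**Figure D3:**
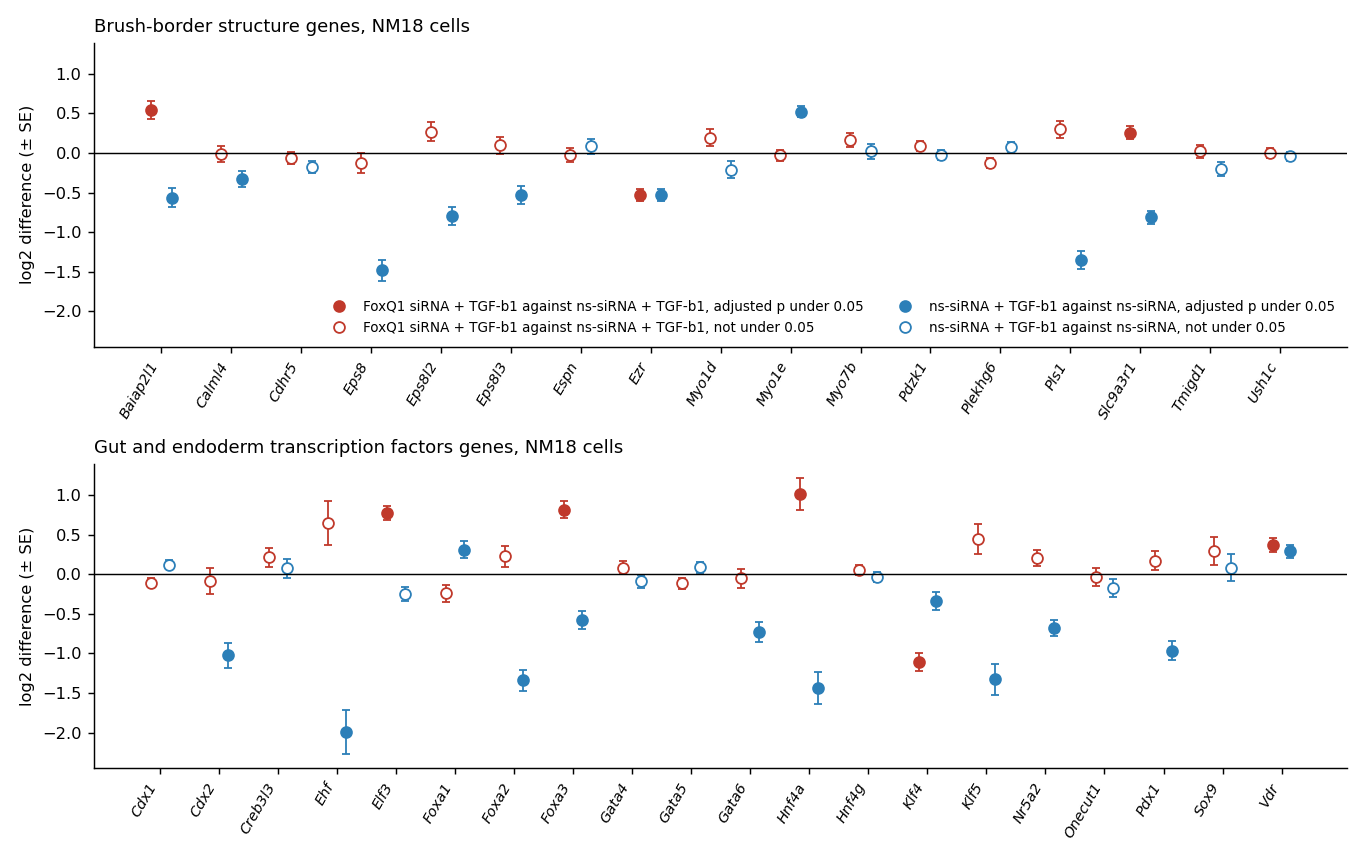
Log2 differences with their SE (vertical axes) for brush-border structure genes (upper panel) and gut and endoderm transcription factors (lower panel) in NM18 cells, filled where the limma adjusted p is under 0.05. Most filled points of ns-siRNA with TGF-b1 against ns-siRNA lie below 0 (8 of 9 above and 10 of 12 below), and 3 of 17 and 5 of 20 genes are filled for FoxQ1 siRNA against ns-siRNA under TGF-b1.

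Relatives of the 5 genes went both ways. Of all genes, 17.5% were called lower and 13.2% higher after 40 h of TGF-b1, and 11.3% higher with FoxQ1 siRNA under TGF-b1. Of 7 other galectins, 2 were called lower after 40 h of TGF-b1, Lgals3 changing by -0.44 ± 0.07 (adjusted p = 0.000582) and Lgals9 by -0.37 ± 0.11 (0.0286), and Lgals3 was called higher with FoxQ1 siRNA (0.36 ± 0.07, 0.00407). Of 25 other tetraspanins, 6 were called higher and 7 lower with TGF-b1, Tspan15 changing by -1.85 ± 0.16 (1.23e-05) and Cd151 by 0.40 ± 0.08 (0.00236). Of 7 other villin and gelsolin genes, 2 were called higher, Gsn (gelsolin, which severs actin) by 0.74 ± 0.11 (0.000321) and Capg by 0.75 ± 0.21 (0.0168). Of 3 other epithelial cadherins, Cdh1 (E-cadherin) changed by -1.04 ± 0.09 (1.04e-05) and Cdh16 by -0.71 ± 0.13 (0.00169). Both were higher with FoxQ1 siRNA under TGF-b1, Cdh1 by 1.05 ± 0.09 (1.3e-05) and Cdh16 by 1.21 ± 0.13 (9.61e-05). These p-values are limma's.

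Most absorptive and secretory gut genes were not called, like most of all genes measured. Of all genes, 17.5% were called lower and 13.2% higher after 40 h of TGF-b1. With FoxQ1 siRNA under TGF-b1, 11.3% were called higher. Of 21 measured genes of absorptive gut epithelium, 3 were called lower after 40 h of TGF-b1, Mep1a (a brush-border protease) at -0.62 ± 0.08 (adjusted p = 0.000197, limma), Gda and Guca2b. With a replicate block 5 were lower and 1 higher. Leaving out 1 array gave 2 to 5 lower, with 5 without FoxQ1 siRNA array 2 and 2 without any 1 of the arrays of ns-siRNA alone. With FoxQ1 siRNA under TGF-b1, 1 of 21 was called higher, the gut keratin Krt20 by 1.01 ± 0.13 (0.000356), and with a replicate block 4 of 21 were. Of 15 secretory genes, 2 were called lower with TGF-b1, Fcgbp at -0.92 ± 0.09 (2.67e-05) and Gcnt3, and 4 with a replicate block.

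In NMuMG cells, 2 h of TGF-b1 lowered Tspan8 in newly made RNA. Tspan8 had 11.04, 10.77 and 10.78 in TGF-b1 newly made RNA and 12.13, 12.19 and 12.18 in control newly made RNA. It had 12.85, 12.79 and 12.58 in TGF-b1 total RNA and 12.99, 12.69 and 13.03 in control total RNA. The newly made groups did not overlap and the total groups did. TGF-b1 against control gave -1.30 ± 0.13 (2.47-fold lower) in newly made RNA. The total RNA gave -0.16 ± 0.13. The first effect minus the second was -1.14 ± 0.18, and 1 of the 5 genes was called negative in it, beside 0.055% of all genes. The call was lost without array 2 or 3 of TGF-b1 or control newly made RNA, or without array 1 or 2 of TGF-b1 or control total RNA, each left out alone, the difference then lying between -1.03 and -1.18.

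The Tspan8 probe sets did not all show the same levels. Of the 5 in NMuMG cells, 1455709_at was higher in newly made than in total RNA with and without TGF-b1, with no overlap, where 1424649_a_at, which stands for the gene, was lower. It had 7.54, 7.97 and 7.55 in TGF-b1 newly made RNA and 9.80, 9.54 and 9.86 in control newly made RNA. In total RNA it had 5.61, 5.48 and 5.46 with TGF-b1 and 7.16, 7.17 and 7.32 in controls. By this probe set the TGF-b1 difference was -2.05 in newly made and -1.70 in total RNA, with no overlap in either. The other 3 probe sets gave -1.40, -1.55 and -0.91 in newly made RNA, with no overlap, and -0.07, -0.22 and -0.24 in total RNA, with overlap. The part of the transcript each probe set reads was not used here. The NM18 table held the other 4 probe sets.

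**Figure D4:**
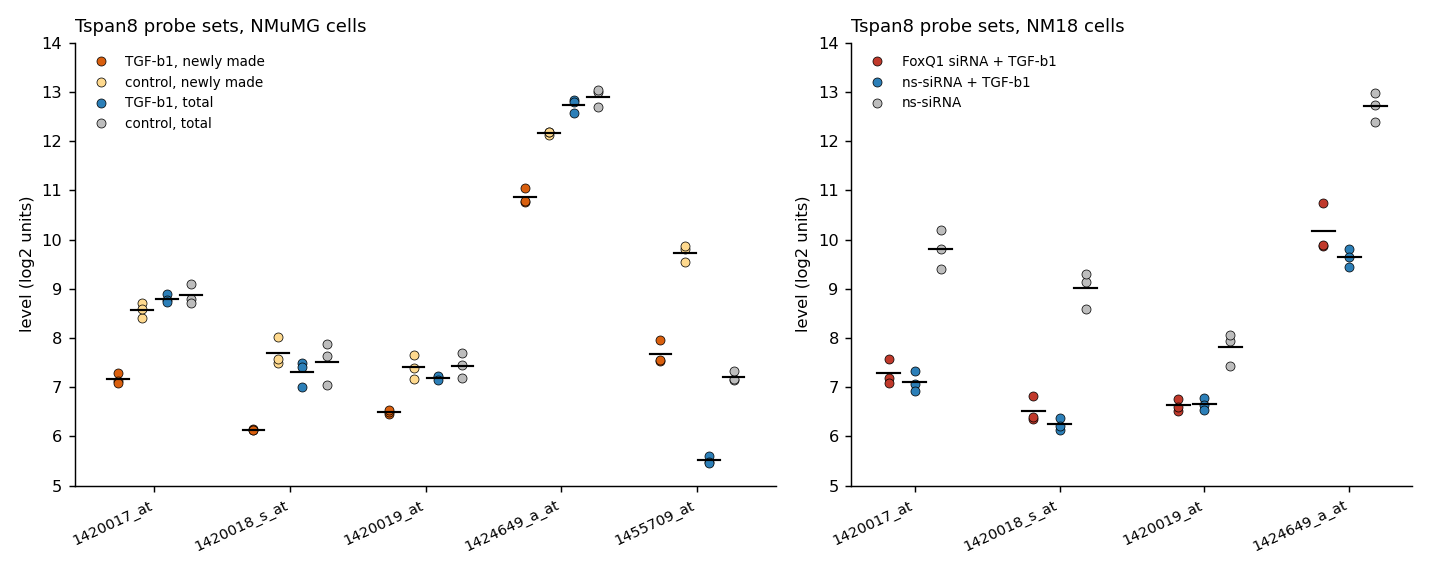
Levels of each Tspan8 probe set (log2 units) on each array of NMuMG cells (left) and NM18 cells (right), with group means as bars (n = 3). All 5 probe sets are lower with TGF-b1 in newly made RNA, and 1455709_at is the probe set that has no overlap between TGF-b1 and control in total RNA (5.46 to 5.61 against 7.16 to 7.32).

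Vil1 was the other gene lower in newly made RNA at 2 h. It had 6.09, 6.37 and 5.91 in TGF-b1 newly made RNA and 6.74, 6.98 and 6.57 in control newly made RNA, with no overlap. It had 8.93, 8.85 and 8.53 in TGF-b1 total RNA and 9.03, 8.9998 and 9.12 in control total RNA, also with no overlap. The differences were -0.64 ± 0.15 (1.56-fold lower) and -0.28 ± 0.15, of which the first was called. Same-numbered arrays differed by -0.65, -0.61 and -0.66 in newly made RNA. The call was lost without control newly made array 2 (difference -0.53), without TGF-b1 newly made array 3 (-0.53), and with only the newly made arrays in the fit.

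Cdh17 and the galectins gave no difference that held up at 2 h. Cdh17 had 8.74, 8.87 and 8.48 in TGF-b1 newly made RNA and 8.91, 8.87 and 8.92 in control newly made RNA, a difference of -0.20 ± 0.12. In total RNA it had 10.31, 10.51 and 10.20 with TGF-b1 and 10.37, 10.30 and 10.40 in controls (-0.02 ± 0.12). Lgals2 had 11.09, 11.41 and 10.996 in TGF-b1 newly made RNA and 11.09, 11.16 and 11.16 in control newly made RNA (0.03 ± 0.14). Its total RNA had 12.94, 12.88 and 13.05 with TGF-b1 and 12.92, 12.75 and 13.32 in controls (-0.04 ± 0.14). Lgals4 had 8.72, 8.38 and 8.39 in TGF-b1 newly made RNA and 8.52, 8.48 and 8.65 in control newly made RNA (-0.05 ± 0.14). Its total RNA had 10.72, 10.56 and 10.63 with TGF-b1 and 10.73, 10.35 and 10.85 in controls (-0.01 ± 0.14). Except for Cdh17 in newly made RNA, whose highest TGF-b1 array lay just under the lowest control, these groups overlapped.

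**Figure D5:**
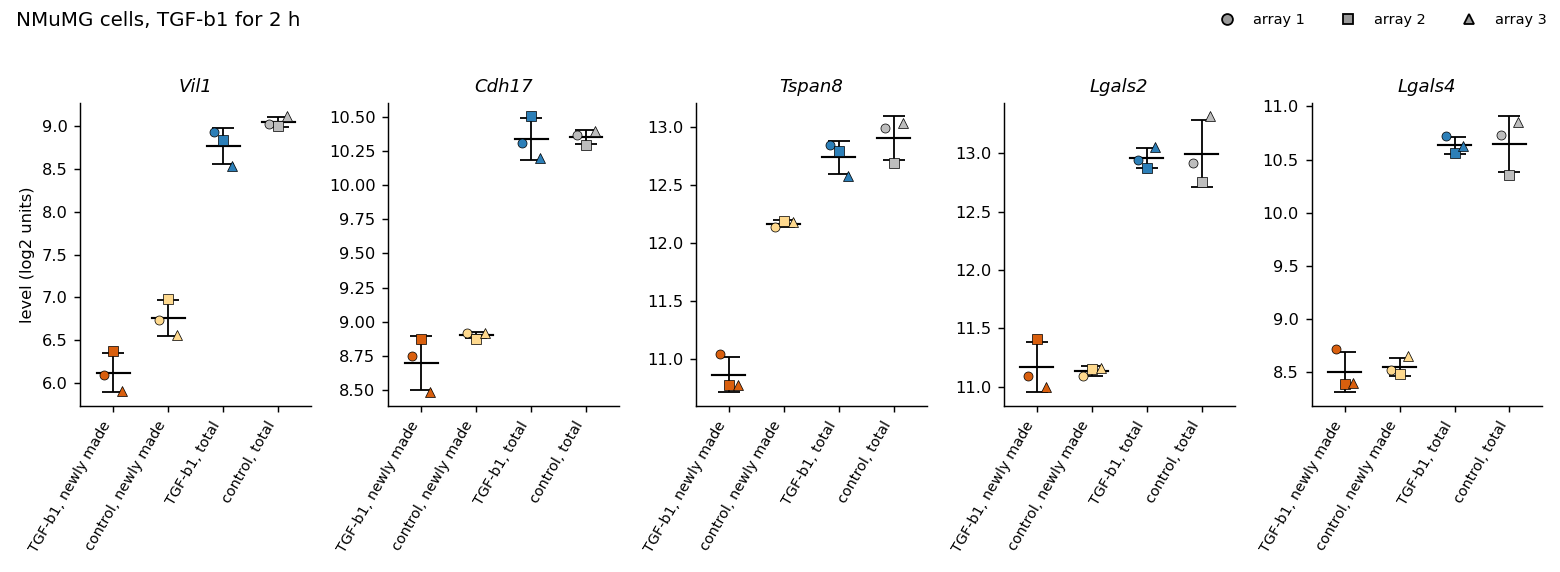
Levels of the 5 genes on each NMuMG array (log2 units on the vertical axis, a separate scale per gene), with points shaped by array number, long bars for group means and capped bars for ± 1 SD (n = 3). By the probe set that stands for it, each gene is lower in newly made than in total RNA, and Tspan8 and Vil1 are lower with TGF-b1 in newly made RNA.

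In the limma fit, 2 of the 5 genes (Tspan8 and Vil1) were called lower in newly made RNA after 2 h, beside 2.79% of all genes. In total RNA, 0 of the 5 were called in either direction by limma, beside 2.48% of all genes, and 0 had an unadjusted p under 0.05. With the mean of all probe sets for each gene, Tspan8 was called lower in total RNA (-0.48). The NM18 values at 40 h come from another line, array and time, so they are set beside these with no test. Lgals2 and Lgals4, which differed by 0.03 and -0.05 in newly made RNA at 2 h, differed by -3.26 and -3.52 in NM18 cells at 40 h.

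All 5 genes were lower in newly made than in total RNA, by values that depend on how the arrays were scaled. In TGF-b1 cells the differences were -2.65 for Vil1, -1.64 for Cdh17, -1.88 for Tspan8, -1.79 for Lgals2 and -2.14 for Lgals4, and in control cells they were -2.29, -1.46, -0.74, -1.86 and -2.10. All 5 were called lower in TGF-b1 cells, beside 26.8% of all genes, and all 5 in control cells, beside 26.8%. The median over all genes was -0.08 in both, and centring each array on its median moved it to -0.31 in TGF-b1 and -0.33 in control cells. Relative to the median, Vil1 lay at -2.57 in TGF-b1 and -2.21 in control cells, and Tspan8 at -1.79 and -0.65. The Tspan8 value in control cells was -0.21 and not called after quantile normalization, and 0.32 and called higher as the mean of all 5 probe sets. The control probe sets for Gapdh differed by 2.67 to 3.72 between the 3′ and 5′ ends in newly made RNA and by 1.63 to 1.94 in total RNA. The part of that difference in these values was not tested.

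At 2 h in NMuMG cells some brush-border genes were called in each direction. Of 21 measured genes for brush-border structure, 5 were called lower and 2 higher in newly made RNA, beside 2.79% and 3.35% of all genes. Slc9a3r1 changed by -0.90 ± 0.12 (adjusted p = 0.00014) and Ezr by -0.84 ± 0.11 (0.000179), while Myo1e was higher by 0.70 ± 0.12 (0.00114) and Myo1d by 0.57 ± 0.11 (0.00433). With a replicate block within each kind of RNA, 9 were called lower and 3 higher, and with number 2 left out 2 and 1. Without control newly made array 2 alone, 2 were called lower and 2 higher, and without TGF-b1 newly made array 3 alone, 3 and 2. In total RNA 1 of 21 was called, Eps8l3 at -0.47 ± 0.11 (0.0269), lost without any 1 of the 6 total RNA arrays, beside 1.02% of all genes called lower. Of 22 gut and endoderm transcription factors, 4 were called higher and 2 lower in newly made RNA, Foxa2 changing by -1.67 ± 0.16 (6.5e-06) and Foxa3 by 1.01 ± 0.16 (0.000741). In total RNA 3 were called higher, beside 1.46% of all genes, and 4 lower, with Foxa2 at -1.69 ± 0.16 (9.39e-06). With the block within each kind of RNA, 6 factors were called higher and 7 lower in newly made RNA. With number 2 left out, 1 was higher and 1 lower in each kind of RNA, and without control newly made array 3 alone, 1 was higher and 2 lower in newly made RNA. Without control total array 3 alone, 1 was higher and 2 lower in total RNA. Of 22 measured absorptive gut genes, 2 were called higher and 1 lower in newly made RNA, beside 3.35% and 2.79% of all genes. In total RNA 1 was called higher and 0 lower, beside 1.46% and 1.02%. The gene called higher in both was the gut keratin Krt20, by 1.34 ± 0.13 (5.89e-06) in newly made RNA and by 0.93 ± 0.13 (0.000391) in total RNA. These p-values are limma's, adjusted over all genes. Among 8 other galectins, Lgalsl changed by -0.62 ± 0.13 (0.00562) in newly made RNA.

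Correlations over the 12 NMuMG arrays include the split between newly made and total RNA, in which all 5 genes were lower in newly made RNA. For Tspan8, by the probe set that stands for it, the TGF-b1 difference in newly made RNA (-1.30) was larger than that split in control cells (-0.74). By the other probe sets the split in control cells was 2.52, 0.17, -0.30 and -0.03. Over these arrays Vil1 was most like Tmem106c (r = 0.998), Hpx (0.997) and Afp (0.996). Tspan8 was most like Vnn1 (0.994), Cth (0.982) and Mgst2 (0.978). Vnn1 was among the 3 genes most like Lgals4 in NM18 cells. Cdh17 was most like Tecr, Slc39a4 and Cfap298 (0.995, 0.995 and 0.994), Lgals2 like Coq4, Map2k2 and Nop53 (0.998, 0.997 and 0.996), and Lgals4 like Apool, Cdk5 and 1110004F10Rik (0.997, 0.996 and 0.996). Correlations between the 5 genes lay between 0.795 (Tspan8 and Lgals2) and 0.988 (Vil1 and Cdh17).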

How the data were processed

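The authors deposited 2 tables of processed array values, read here as log2 values from their ranges (2.34 to 14.8 in NMuMG and 4.57 to 14.6 in NM18). Per the submitters' processing notes the affy package (1.18.2) was used, and the background correction and normalization are not given in the sources used here. Probe sets were named from the platform annotation: 34945 of 45101 (NMuMG) and 20380 of 22690 (NM18) had 1 gene symbol. Per table, 1 limma (3.58.1, R 4.3.3) model with a mean per group was fitted to all genes, with Benjamini-Hochberg adjustment and a threshold of 0.05, and was tested on simulated data. The 2 tables were never tested against each other. The 5 genes, the gene lists and the motifs were chosen with earlier results of these data known. Named genes were the 5 in every comparison, up to 4 called genes with the smallest p per list, the 3 most alike genes and Foxq1. Krt8 and Csn2, from the cell type markers, and Fabp1, Lct and Cdx2, from the lists, were named outside this rule, after their values were seen. The alternatives that left out number 2 and that set the block within each kind of RNA were added after seeing the data. Same-numbered NM18 arrays deviated together (r of 0.16 to 0.608 over 9 pairs), as did NMuMG arrays within newly made (0.339 to 0.732) and total RNA (0.122 to 0.407). Across the kinds of RNA, r lay between -0.182 and 0.315 over 12 pairs, a range that overlaps the one within total RNA. The number of arrays limits the precision.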

Additional observations from a re-analysis of the deposited data

Results flagged for a closer look

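The TGF-b1 effect on Tspan8 after 2 h was -1.30 in newly made and -0.16 in total RNA, a difference of -1.14 on the log2 scale. It is listed because the fit over all genes called this difference. Tspan8 was chosen with these results known, so the values are a description and no test of whether the effects differ. With number 2 left out of every group the difference was -0.95 and no longer called. These values are for the probe set that stands for the gene. By 1455709_at the effects were -2.05 in newly made and -1.70 in total RNA, a difference of -0.35. The remaining Tspan8 probe sets gave differences of -1.33, -1.34 and -0.67.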

How the results depend on the processing

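Of 740 single values of the 5 genes under the alternatives, 723 kept their side of the threshold, and no called difference among them changed direction. Differences not called could change sign and still count. Cdh17 in total RNA at 2 h did so, at -0.02 and at 0.02 after quantile normalization. Many values came from leaving out 1 array, and a difference could not move where that array was outside the groups compared. Without the settings that left out 1 array, the count was 298 of 305. The count called lower in newly made RNA after 2 h of TGF-b1 was 2, and 1 in a fit limited to the newly made arrays and 1 with number 2 left out of every group (added after seeing the data). Leaving out 1 array gave 1 to 2, since Vil1 was lost. The count in total RNA was 0, and 1 with the mean of all probe sets. The count in the difference of the 2 h effects was 1, and 0 with number 2 left out, and leaving out 1 array gave 0 to 1. In control cells the Tspan8 difference, newly made minus total, was -0.74, and 0.32 with the mean of all probe sets, a reversal. A replicate block (number) left all counts of the 5 genes as they were, with 5 of 5 lower after 40 h of TGF-b1, and so did a replicate block within each kind of RNA. Counts over all genes moved more. In newly made RNA 1116 genes were called, 680 in the fit limited to them, 2320 with a replicate block within each kind of RNA and 334 with number 2 left out. In total RNA 452 were called, 701 with a replicate block, 1025 with the block within each kind and 121 without number 2. For the difference of effects the counts were 12, then 39 and 86 with these blocks, 19 after quantile normalization, 4 to 20 with 1 array left out and 0 without number 2. Median centring changed the higher and lower calls of newly made against total RNA to 2534 and 8817 in TGF-b1 cells (main 3321 and 4872) and to 2248 and 9297 in control cells (main 3131 and 4877). The causes were not tested. Signal over background is unknown here, as the files hold no detection calls.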
